A study of Homo sapiens with 4 samples.

Results

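The genes described here encode proteins of the mitotic spindle and kinetochore and the enzymes that drive cells into and out of mitosis. There were 52 of them among the 16878 genes in the tables. They were taken by gene symbol from a list of mitotic genes. The rule itself uses no measured value, but the list was chosen with earlier results of these data known. By role they comprised 12 mitotic kinases, cyclins and their regulators and 16 kinetochore, checkpoint and passenger complex genes. The others were 13 kinesins and other spindle genes, and 11 condensin, chromatin and mitotic exit genes. RNA-seq had been run on PANC-1, an established human pancreatic cancer cell line, comparing 2 Control libraries with 2 siSIRT1 libraries, made from cells that had received small interfering RNA to silence SIRT1. All 4 were collected 48 h after transfection. All cells were of the same line, and the labels do not say what the Control cells received. Nothing in the labels says that the 2 libraries of a group came from separate cultures, so p-values measure the spread between these libraries, which may be technical. The question put to the data was which of these transcripts changed with the knockdown of SIRT1, a NAD-dependent protein deacetylase.

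Mitosis begins when CDK1, bound to cyclin A or cyclin B, is freed of the inhibitory phosphates that WEE1 adds and the CDC25 phosphatases remove. Kinetochores built on CENP-A chromatin then attach chromosomes to the microtubules of a bipolar spindle shaped by kinesins, while the spindle checkpoint holds back CDC20 and the anaphase-promoting complex until every kinetochore is attached. Most of the genes for this machinery are transcribed late in the cell cycle. Their promoters are known to be bound by the MuvB complex, which joins the DREAM repressor in resting cells and MYBL2 and FOXM1 in dividing cells, and which recognises a short element called the cell cycle genes homology region, often next to CCAAT boxes that NF-Y binds.

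Promoter sequences from RefSeq (GRCh38.p14), each running from 250 bases before the transcription start to 50 after it, were found for 44 of the 52 genes. The windows of 6 genes are printed. They come from genes with a homology region core shortly before the start, and are those with the largest called rises and the called falls. They were thus picked by their measured change, so their opposite directions were built in. CCAAT was not a condition, but all 6 hold it. Each line gives 140 bases, 120 before the start and 20 from it on, 5′ to 3′ on the strand of the gene. Capitals mark the homology region core (TTTGAA or TTCGAA) and the CCAAT box, in either orientation.
PLK1, chr16:23678769-23678908, plus strand: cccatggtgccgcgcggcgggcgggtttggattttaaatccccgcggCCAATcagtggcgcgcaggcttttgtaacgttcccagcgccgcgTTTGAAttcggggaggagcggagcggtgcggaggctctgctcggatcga
MKI67, chr10:128126404-128126543, minus strand: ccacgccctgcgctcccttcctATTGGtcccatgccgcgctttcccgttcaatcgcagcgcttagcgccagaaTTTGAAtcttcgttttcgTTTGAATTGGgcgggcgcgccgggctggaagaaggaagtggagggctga
CDK1, chr10:60778358-60778497, plus strand: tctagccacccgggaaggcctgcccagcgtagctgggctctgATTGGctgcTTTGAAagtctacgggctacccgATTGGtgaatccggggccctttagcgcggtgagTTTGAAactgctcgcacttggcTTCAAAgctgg
KIF4A, chrX:70289984-70290123, plus strand: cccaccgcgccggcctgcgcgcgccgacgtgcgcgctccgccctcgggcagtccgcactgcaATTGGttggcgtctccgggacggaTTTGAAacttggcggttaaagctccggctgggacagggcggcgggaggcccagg
CDC25C, chr5:138331785-138331924, minus strand: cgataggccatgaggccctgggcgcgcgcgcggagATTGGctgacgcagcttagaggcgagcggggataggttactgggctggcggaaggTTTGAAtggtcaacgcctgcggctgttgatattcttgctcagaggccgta
CDC25B, chr20:3796190-3796329, plus strand: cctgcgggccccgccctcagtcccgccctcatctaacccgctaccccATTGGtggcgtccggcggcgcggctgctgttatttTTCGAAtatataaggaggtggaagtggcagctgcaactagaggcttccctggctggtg

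PLK1, KIF4A, CDC25C and CDC25B each held 1 homology core in these windows, beginning 29, 34, 30 and 38 bases before the start. MKI67 held cores at 47 and 29 bases before the start, and CDK1 at 69 and 13 bases before it and at 9 after it. In MKI67 the core nearer the start ran into an inverted CCAAT box, with 1 base belonging to both. The core was present on either strand in the 300-base promoter of 34 of the 44 genes (77.3%), against 15.1% of the 9984 tested genes with a promoter and 19.5% of all 27305. Between 50 bases before and 10 after the start it was found in 24 of the 44 (54.5%), against 3.4% of the tested genes. CCAAT was found in 34 of the 44 (77.3%), against 43.1% of the tested genes, and 27 of the 44 (61.4%) held both, against 8.21%. Some genes have more than 1 promoter window, and counted by window the shares were 65.5% of 55 for the core and 70.9% for CCAAT, against 16.4% and 34.6% of 35116. A match is a run of letters and does not show that a protein was bound there in PANC-1 cells.

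**Figure D1:**
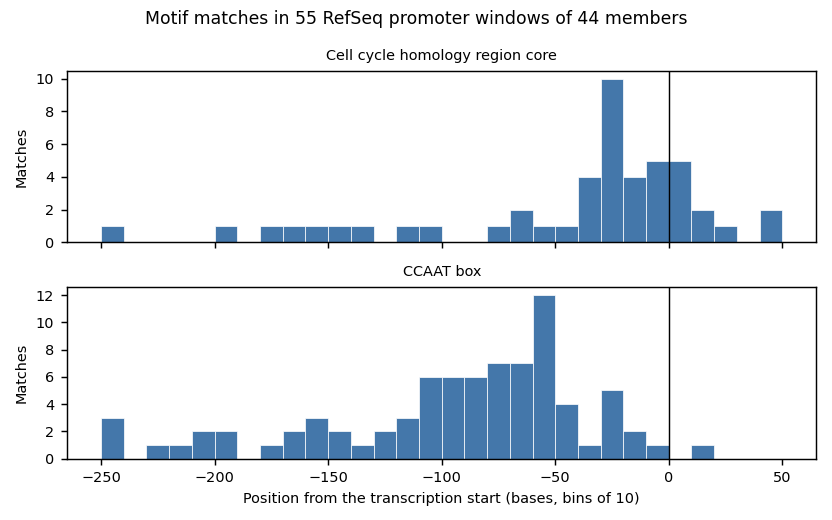
Number of matches to the homology region core (top) and to CCAAT (bottom) by position from the transcription start in bases, in bins of 10, over the 55 promoter windows of 44 mitotic genes. The vertical line marks the start, and core matches gather just before and around it, while CCAAT matches are most frequent between about 110 and 50 bases before it.

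Each library held values in FPKM, which is the fragment count of a gene divided by its transcript length and by the library total. SIRT1 itself (GRCh37 chromosome 10, 69644414 to 69678147) went from 10.5 and 10.3 FPKM (Control) to 1.80 and 2.05 (siSIRT1), so that 18.6% of its Control level remained. Estimated depths were 8710000 to 9090000 reads per library, and the reads behind a mitotic gene ran from 84 for NUF2 to 6415 for MKI67. The epithelial keratins typical of a pancreatic carcinoma line, KRT8, KRT18 and KRT19, were abundant in all 4 libraries, but KRT7, EPCAM and CDH1 stayed below 12 FPKM. The acinar markers PRSS1, CPA1, CELA3A and CTRB1 summed to at most 0.42 FPKM, and the endothelial markers to at most 0.81. The endocrine markers summed to 0, but this rests on PPY and CHGA alone. INS, GCG, SST, AMY2A and PNLIP were not listed under those names. The leukocyte markers summed to 67.5 to 69.3 FPKM in Control and 43.6 to 47.8 in siSIRT1, nearly all of it CD68, with PTPRC at 0.97 to 1.29 FPKM.

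All 52 mitotic genes were expressed, and all passed the filter of a mean of at least 1 FPKM. The highest in Control were TPX2, the activator of Aurora A, at a mean of 132 FPKM, the phosphatase CDC25B at 124, the separase inhibitor PTTG1 at 89.0, the checkpoint target CDC20 at 80.7 and the ubiquitin-conjugating enzyme UBE2C at 70.9. The lowest were the kinetochore motor CENPE at 3.47 FPKM, the motor KIF18A at 4.24, NUF2 of the NDC80 complex at 5.32, the condensin core subunit SMC2 at 5.96 and the spindle pole protein ASPM at 6.32. FPKM divides by transcript length, so these levels can be compared between genes, but only roughly, because the annotation used is not stated. Neighbours in the order often lay closer than their libraries. NUF2 (5.11 and 5.52 FPKM in Control) and SMC2 (5.44 and 6.48), for example, overlapped. Summed over the 52 genes, the level was 1546 and 1551 FPKM in Control against 1760 and 1791 in siSIRT1, or 0.384% and 0.391% of each Control table against 0.413% and 0.439% of each siSIRT1 table.

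**Figure D2:**
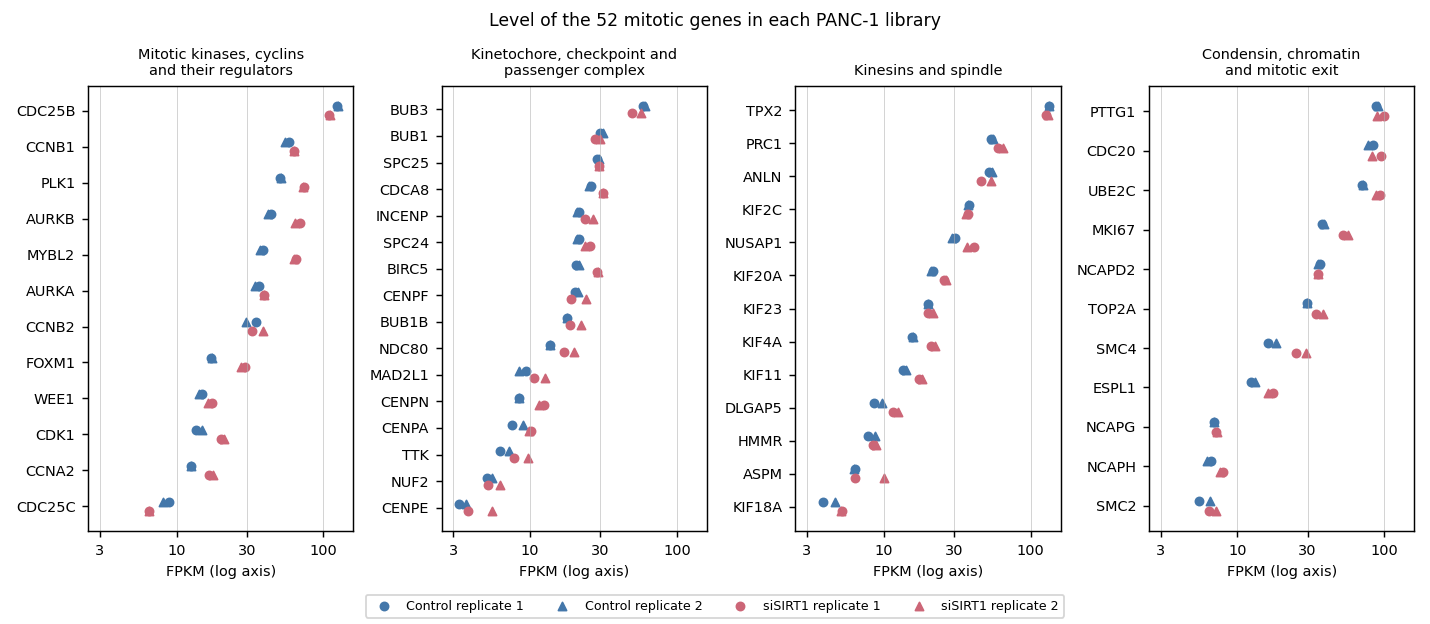
Level of each of the 52 genes in FPKM (log axis) in the 2 Control libraries (blue) and the 2 siSIRT1 libraries (red), in 4 panels by role, ordered by the Control mean. Points of a group lie close together for most genes, and the red points sit to the right of the blue for genes such as MYBL2, FOXM1, AURKB, SMC4 and MKI67, to the left for CDC25C, and over each other for KIF2C and NCAPD2.

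After SIRT1 knockdown 22 of the 52 genes rose, by 0.24 to 0.75 on the log2(FPKM + 1) scale. CDC25B and CDC25C were the 2 called lower. Rises and falls below are counted from calls. Calls were made at an adjusted p below 0.05 in limma, fitted over all 12191 genes tested. Without Control replicate 1 the number of rises was 14, and the number of all genes called went from 4521 to 2744. Without Control replicate 2 these numbers were 16 and 2691. The background was 24.0% of all tested genes higher and 13.1% lower (37.1% called in all), against 42.3% higher and 3.85% lower (46.2% called) among the mitotic genes. The median log2 fold change was 0.25 over the 52 genes and 0.07 over all genes, and over the 4 pairs of a siSIRT1 with a Control library the median of the 52 ran from 0.19 to 0.29. In 36 genes both siSIRT1 values lay above both Control values and in 5 both lay below, while 11 overlapped. The same held for 43.8% of all genes in the higher and 25.2% in the lower direction, or 69.0% in all. The log2 fold change was positive in 44 of the 52 genes and in 60.1% of all genes. When libraries were scaled by the median of ratios, 16.6% of all genes were called higher and 16.8% lower, and of the mitotic genes 17 were higher and 3 lower. The cut-offs of the study, a fold above 1.2 and an unadjusted p under 0.001, were also applied to the limma fit. There 13 of the 52 were higher and 0 lower, against 11.2% and 6.89% of all genes. The study itself reported more genes in each direction at these cut-offs, so the 13 need not be what its own analysis called. The 28 genes that did not pass had log2 fold changes of -0.18 to 0.33 and adjusted p of 0.0578 to 0.807. RNA came from whole cultures, so more RNA of a gene per cell and a larger share of cells in the phase that expresses it cannot be told apart.

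**Figure D3:**
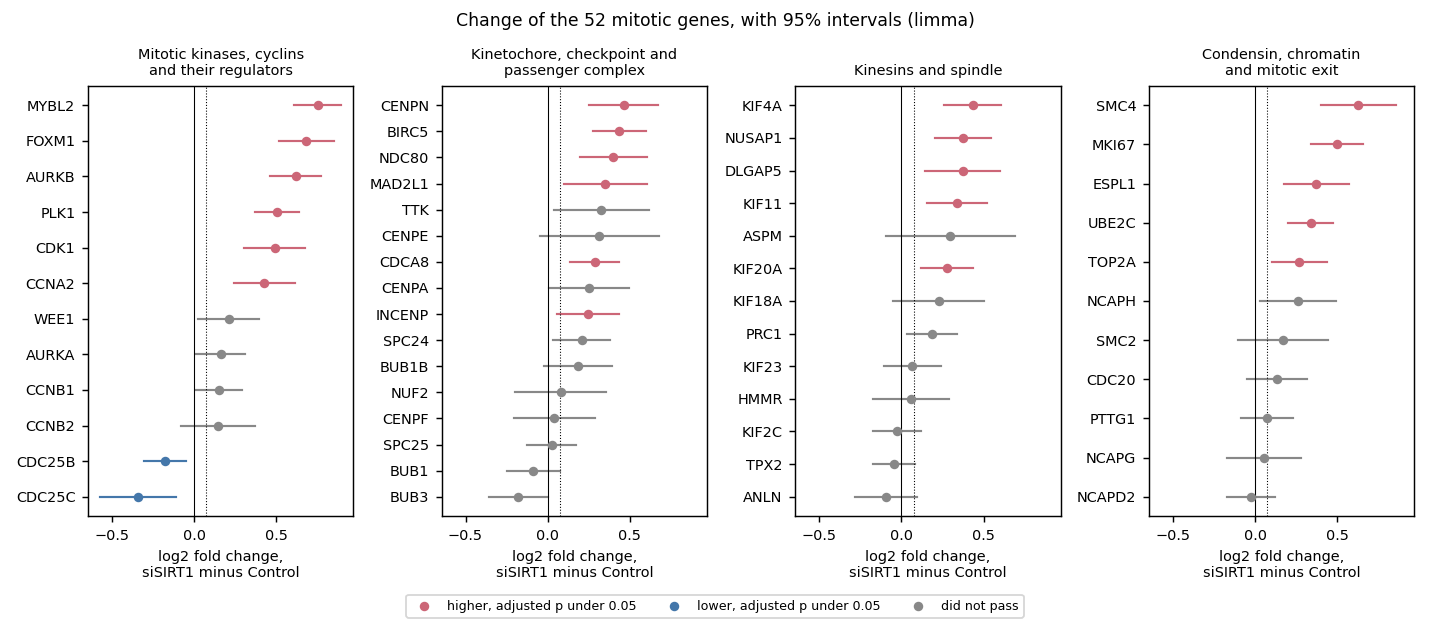
Log2 fold change of each of the 52 genes, siSIRT1 minus Control on the log2(FPKM + 1) scale, with the 95% interval from limma, in 4 panels by role. Red marks the 22 genes that were higher and blue the 2 that were lower at an adjusted p under 0.05, grey the 28 that did not pass, and the dotted line the median of all genes at 0.07.

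Rises were found with and without the promoter elements. Of the 34 genes with the homology core, 15 rose and 2 fell, with a median log2 fold change of 0.24, and of the 10 without it 4 rose and 0 fell, with a median of 0.27. The 34 genes with CCAAT held 16 rises and 2 falls at a median of 0.26, and the 10 without it 3 rises and 0 falls at a median of 0.18. No test was made between these sets. Over all tested genes, 24.0% were called higher and 13.1% lower, and those shares were not split by promoter element. The genes printed above all carry both elements and were picked by their change, so they do not bear on genes without the elements. Among them CDC25C, called lower, has its core at -30 from the start, and PLK1, called higher, at -29. Their CCAAT boxes lie at -85 and -73, in opposite orientations.

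Among the 12 kinases, cyclins and regulators, 6 rose and 2 fell, and the median log2 fold change was 0.32. That is 66.7% called, against 37.1% of all tested genes (24.0% higher and 13.1% lower). The 2 transcription factors of the group moved most. MYBL2, the MuvB partner (chromosome 20, 42295754 to 42345122 on GRCh37), was at 38.9 and 36.7 FPKM in Control against 65.5 and 63.0 in siSIRT1. FOXM1, which activates late cell cycle genes, was at 17.2 and 17.5 FPKM in Control against 29.4 and 27.4 in siSIRT1. The groups were well apart for both, with a rise of 70.0% in the mean for MYBL2 (log2 fold change 0.75, SE 0.06, adjusted p 8.01e-05) and of 64.2% for FOXM1 (0.68, SE 0.07, adjusted p 0.000248).

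The catalytic kinases differed among themselves. AURKB, the kinase of the chromosomal passenger complex, was at 44.2 and 41.8 FPKM in Control against 69.1 and 63.9 in siSIRT1 (log2 fold change 0.62, SE 0.07, adjusted p 0.000262). PLK1, which acts at centrosomes, kinetochores and the midzone, was at 50.6 and 51.6 FPKM in Control against 73.5 and 72.2 in siSIRT1 (0.50, SE 0.06, adjusted p 0.000353). Both were higher in each siSIRT1 library than in either Control library, by 54.7% and 42.6% in the mean. CDK1, the central mitotic kinase, rose by 0.49 (adjusted p 0.00207), and cyclin A2 (CCNA2), its partner from S phase on, by 0.43 (adjusted p 0.00399). The B-type cyclins did not pass: CCNB1 went from 58.41 and 54.99 FPKM to 62.9 and 63.1 (0.15, adjusted p 0.0859), and in CCNB2 the groups overlapped (0.15, adjusted p 0.286). Aurora A (AURKA), the spindle pole kinase, had a log2 fold change of 0.16 (adjusted p 0.0868), and WEE1, the kinase that inhibits CDK1, one of 0.21 (adjusted p 0.0710). Differences between these genes were not tested.

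CDC25B and CDC25C encode phosphatases that activate CDK1. They were singled out after their values were seen, because no other of the 52 genes was called lower in the limma fit above. CDC25C (chromosome 5, 137620958 to 137667493 on GRCh37) was at 8.85 and 8.14 FPKM in Control against 6.46 and 6.51 in siSIRT1, a log2 fold change of -0.34 (SE 0.10, adjusted p 0.0274). CDC25B, one of the most abundant of the 52, was at 123 and 126 FPKM in Control against 109 and 111 in siSIRT1 (-0.17, SE 0.06, adjusted p 0.0388). The libraries of the groups did not overlap for either gene, but both calls were lost in 3 of the 4 fits without 1 library. Adjusted p was 0.225 for CDC25B and 0.220 for CDC25C without Control replicate 1, 0.325 and 0.0876 without Control replicate 2, and 0.0509 and 0.0567 without siSIRT1 replicate 1. CDC25B was also lost without the trend (0.135) and CDC25C without the filter (0.0567). The third member of the family, CDC25A, which acts earlier, on the kinases of S phase entry, was not among the 52. It was at 1.67 and 1.56 FPKM in Control against 4.74 and 5.36 in siSIRT1 (1.21, SE 0.13, adjusted p 0.000219), so the 3 phosphatase transcripts did not move in one direction.

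In the kinetochore, checkpoint and passenger group 6 of 16 genes rose and 0 fell, with a median log2 fold change of 0.25. That is 37.5% called, close to the 37.1% of all tested genes (24.0% higher and 13.1% lower). The 6 included BIRC5, INCENP and CDCA8, which with AURKB make up the chromosomal passenger complex that corrects faulty attachments. BIRC5 (survivin) was at 20.4 and 21.5 FPKM in Control against 28.5 and 28.8 in siSIRT1, a log2 fold change of 0.44 (SE 0.07, adjusted p 0.00171). CDCA8 (borealin), which targets the complex to centromeres, had a log2 fold change of 0.28 (adjusted p 0.00976), and the scaffold INCENP one of 0.24 (adjusted p 0.0472). All 4 subunits were thus called, but the INCENP call passed in 3 of 10 other ways of processing, and median-of-ratios scaling left CDCA8 at an adjusted p of 0.0559.

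CENPN, an inner kinetochore protein that reads CENP-A nucleosomes (chromosome 16, 81040819 to 81065090 on GRCh37), had the largest log2 fold change of the group at 0.46 (SE 0.09, adjusted p 0.00514). Its level was 8.40 and 8.36 FPKM in Control against 12.4 and 11.4 in siSIRT1. NDC80, the microtubule-binding subunit of the outer kinetochore complex of that name, was at 13.7 in both Control libraries and at 17.1 and 19.8 FPKM in siSIRT1 (0.40, SE 0.09, adjusted p 0.00871). The other subunits of the NDC80 complex did not pass, with log2 fold changes of 0.21 for SPC24 (adjusted p 0.0651), 0.08 for NUF2 (0.654) and 0.02 for SPC25 (0.807). MAD2L1, the checkpoint protein MAD2, was at 9.42 and 8.42 FPKM in Control against 10.6 and 12.7 in siSIRT1 (0.35, SE 0.11, adjusted p 0.0370), and its call held in 5 of the 10 other ways of processing.

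The remaining checkpoint genes did not pass. TTK, the kinase that starts checkpoint signalling, had a log2 fold change of 0.33 (adjusted p 0.0755) and BUB1B (BUBR1) one of 0.18 (0.149). BUB1 and BUB3 had values below 0, at -0.09 (0.369) and -0.18 (0.106). BUB3 was at 58.7 and 60.8 FPKM in Control against 49.0 and 56.7 in siSIRT1, and it was called lower when libraries were scaled by the median of ratios (log2 fold change -0.27, adjusted p 0.0294). CENPA, the centromeric histone, had a log2 fold change of 0.25 (0.101), CENPE 0.31 (0.155) and the large coiled-coil protein CENPF 0.04 (0.798). Of the 6 calls in the group, INCENP, MAD2L1 and CDCA8 depended on single libraries. Without Control replicate 1 the adjusted p was 0.134 for INCENP, 0.0648 for MAD2L1 and 0.0711 for CDCA8, and without Control replicate 2 it was 0.244, 0.218 and 0.102. Without siSIRT1 replicate 2 it was 0.146 for INCENP and 0.140 for MAD2L1.

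Of the 13 kinesins and spindle genes 5 rose and 0 fell, with a median log2 fold change of 0.23. That is 38.5% called, close to the 37.1% of all tested genes (24.0% higher and 13.1% lower). KIF4A, a chromokinesin that also works at the midzone (chromosome X, 69509954 to 69640736 on GRCh37), was at 15.6 and 15.7 FPKM in Control against 20.9 and 22.2 in siSIRT1 (0.43, SE 0.08, adjusted p 0.00267). Its near-identical copy KIF4B was listed at 0 in 3 libraries and at 0.03 FPKM in the other, and how reads common to both were assigned is not stated. KIF11 (Eg5), which pushes the spindle poles apart, was at 13.6 and 14.2 FPKM in Control against 17.5 and 18.2 in siSIRT1 (0.34, SE 0.08, adjusted p 0.0103). KIF20A, a kinesin of cytokinesis, rose by 0.28 (adjusted p 0.0145). For KIF4A, KIF11 and KIF20A both siSIRT1 libraries exceeded both Control libraries, as they did for 43.8% of all tested genes.

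A pair of microtubule-associated proteins rose as well. NUSAP1, which bundles spindle microtubules, was at 30.4 and 29.3 FPKM in Control against 41.2 and 36.8 in siSIRT1 (0.37, SE 0.07, adjusted p 0.00509). DLGAP5 (HURP), which stabilises kinetochore fibres, was at 8.51 and 9.69 FPKM in Control against 11.6 and 12.5 in siSIRT1 (0.37, SE 0.10, adjusted p 0.0182). Groups did not overlap in either gene. In GENCODE, 97.8% of the exon bases of NUSAP1 are also covered by another gene model on the same strand, and 88.4% of those of PRC1, so reads there could have been split between models. The motors KIF23 (0.07, adjusted p 0.529) and KIF2C (-0.03, 0.764), the Aurora A activator TPX2 (-0.04, 0.582), the cytokinesis scaffold ANLN (-0.09, 0.409) and HMMR (0.06, 0.672) had fold changes near 0. KIF18A (0.23, 0.175), the midzone bundler PRC1 (0.19, 0.0578) and ASPM (0.30, 0.207) did not pass either. The calls of KIF11, KIF20A and DLGAP5 were lost without Control replicate 1 (adjusted p 0.0993, 0.0796 and 0.168). KIF11 and KIF20A were also lost without Control replicate 2 (0.0514 and 0.138), and DLGAP5 without siSIRT1 replicate 2 (0.0647). Quantile, median-of-ratios and equal-sum scaling each ended the KIF20A call (0.0625, 0.0720 and 0.0523), and the DLGAP5 call ended without the filter (0.0585) and with equal sums (0.0554).

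In the condensin, chromatin and exit group 5 of 11 genes rose and 0 fell, with a median log2 fold change of 0.26. That is 45.5% called, against 37.1% of all tested genes (24.0% higher and 13.1% lower). SMC4, a core ATPase of both condensins, which compact mitotic chromosomes (chromosome 3, 160117438 to 160152741 on GRCh37), was at 16.0 and 18.4 FPKM in Control against 25.0 and 29.4 in siSIRT1. Its log2 fold change of 0.63 (SE 0.10, adjusted p 0.00165) corresponds to a mean 58.0% higher. Its partner SMC2 was at 5.44 and 6.48 FPKM in Control against 6.44 and 7.19 in siSIRT1 (0.17, adjusted p 0.2998), with overlapping groups. The condensin I subunits NCAPH (0.26, adjusted p 0.0744), NCAPG (0.05, 0.702) and NCAPD2 (-0.02, 0.803) did not pass. In NCAPG, 35.6% of the exon bases are covered by LCORL on the opposite strand, and whether counting used strand is not stated. SMC4 was the only called condensin gene among the 5, and its difference from SMC2 was not tested.

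MKI67, the Ki-67 protein that coats mitotic chromosomes and is widely used as a proliferation marker, was at 37.4 and 38.9 FPKM in Control against 51.99 and 56.72 in siSIRT1 (0.50, SE 0.07, adjusted p 0.000810). TOP2A, the topoisomerase that untangles sister chromatids, rose by 0.27 (adjusted p 0.0204). Among the genes of mitotic exit, ESPL1 (separase), the protease that cleaves cohesin, was at 12.3 and 13.3 FPKM in Control against 17.6 and 16.1 in siSIRT1 (0.37, SE 0.09, adjusted p 0.00999). Its inhibitor PTTG1 (securin) had overlapping groups (0.08, adjusted p 0.433). UBE2C, which hands ubiquitin to the anaphase-promoting complex, was at 69.9 and 72.0 FPKM in Control against 92.7 and 87.2 in siSIRT1 (0.34, SE 0.06, adjusted p 0.00306). With each library's trend on transcript length removed, its log2 fold change was 0.15 (adjusted p 0.0706). CDC20, the activator of that complex, had overlapping groups (0.13, adjusted p 0.228). The TOP2A call held in 5 of the 10 other ways of processing and was lost under quantile, median-of-ratios and equal-sum scaling (adjusted p 0.0970, 0.0897 and 0.0785), without the filter (0.0596) and without the trend (0.0638). It was also lost without Control replicate 1 (0.116), Control replicate 2 (0.113) or siSIRT1 replicate 2 (0.0567), and that of ESPL1 without Control replicate 1 (0.0941).

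The siSIRT1 libraries differed from each other more than the Control libraries did, with a median absolute log2 difference over the 52 genes of 0.104 against 0.0576. Over the 12 mitotic genes with a transcript of at least 5000 bases, siSIRT1 replicate 2 exceeded replicate 1 by a median of 0.18 on the log2 scale, and was higher in 10 of 12, against a median of 0.02 over the 40 shorter ones. The matching medians in Control were 0.06 and 0.00. ASPM was at 6.37 and 10 FPKM in the siSIRT1 libraries but at 6.34 and 6.30 in Control, CENPE at 3.77 and 5.46 against 3.28 and 3.66, and CENPF at 18.8 and 23.9 against 20.1 and 21.1. For these 3 genes the spread within siSIRT1 was larger than their difference from Control. Without siSIRT1 replicate 1, ASPM (adjusted p 0.00887) and CENPE (0.0248) passed as higher. Across the 52 genes the siSIRT1 replicate difference had Pearson's r of 0.54 with log2 length and -0.56 with GC content, and the Control replicate difference an r of 0.16 and -0.41. Across all 11996 tested genes with a transcript the values were 0.40 and -0.36 in siSIRT1 and 0.13 and -0.13 in Control. Fold change and length had an r of 0.00 across the 52. These correlations run across genes of the same 4 libraries and describe them only.

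**Figure D4:**
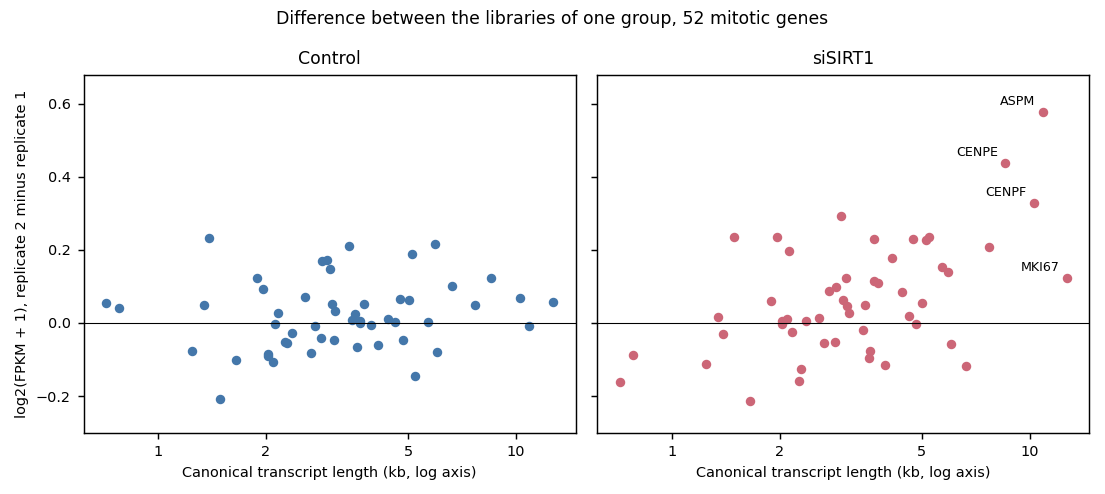
Difference between replicate 2 and replicate 1 on the log2(FPKM + 1) scale against transcript length in kb (log axis) for the 52 genes, in Control (left) and siSIRT1 (right). In Control the points lie nearer 0, with a median of 0.06 for transcripts of at least 5000 bases. In siSIRT1 the long transcripts ASPM, CENPE and CENPF lie at 0.58, 0.44 and 0.33. MKI67, the longest, lies at 0.12 there and ESPL1 at -0.12.

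Mitotic genes outside the 52 were tested in the same fit. Of 98 further genes of mitosis, 38 rose and 5 fell (median log2 fold change 0.21). These were 38.8% and 5.10%, against 24.0% and 13.1% of all tested genes. By class, 5 of 11 entry genes rose and 0 fell, 12 of 31 centromere and kinetochore genes rose and 2 fell, 10 of 25 spindle and cytokinesis genes rose and 2 fell, and 11 of 31 condensin, cohesin and anaphase-promoting complex genes rose and 1 fell. The largest rise at the kinetochore was ZWINT, which links the checkpoint to the outer kinetochore, from 19.7 and 21.2 FPKM to 38.9 and 37.6 (0.87, SE 0.07, adjusted p 6.44e-05). CENPH, of the inner kinetochore, fell from 12.8 and 13.1 FPKM to 7.61 and 10.4 (-0.50, SE 0.13, adjusted p 0.0171), a call that was lost without Control replicate 2 (0.0612). Within the anaphase-promoting complex the small subunit CDC26 went from 6.01 and 5.14 FPKM to 10.4 and 12.9 (0.94, SE 0.13, adjusted p 0.000703), while CDC27 went from 11.5 and 12.5 to 8.77 and 10.2 (-0.32, SE 0.10, adjusted p 0.0389). CDC27 passed in 1 of the 4 fits without a library, losing its call without Control replicate 1, Control replicate 2 or siSIRT1 replicate 1 (highest adjusted p 0.241), and it has near-identical copies in the genome with which it may share reads. HAUS1, of the augmin complex that branches spindle microtubules, had the largest spindle rise (0.56, adjusted p 0.00434). The cytokinesis kinase CIT had the largest spindle fall (-0.30, adjusted p 0.0420), which passed in 0 of the 4 fits without 1 library, at up to 0.317.

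Transcripts of the DREAM and MuvB subunits were measured in the same libraries. Of 11 DREAM and MuvB genes 2 rose and 1 fell, at a median log2 fold change of 0.08. These were 18.2% and 9.09%, which for only 11 genes is close to the 24.0% and 13.1% of all tested genes, whose median was 0.07. TFDP1, the dimer partner of the E2F factors, rose from 19.7 and 19.6 FPKM to 33.3 and 31.6 (0.70, SE 0.07, adjusted p 0.000175), and E2F4, the E2F of the repressor, from 24.7 and 25.0 to 34.7 in both siSIRT1 libraries (0.46, adjusted p 0.000885). RBL2 (p130), the pocket protein of DREAM in resting cells, fell from 9.61 and 9.97 FPKM to 6.0 and 6.01 (-0.62, SE 0.10, adjusted p 0.00148). In each of these 3 genes the groups were far apart, and the calls held in all 10 other ways of processing and all 4 fits without 1 library.

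DNA replication genes, which are expressed earlier in the cycle, gave a second reference. Of 40 of them 26 rose and 0 fell, with a median log2 fold change of 0.38. The mitotic genes had 22 rises of 52, 2 falls and a median of 0.25. Of all tested genes, 24.0% rose and 13.1% fell. The largest rise was GINS2, a subunit of the replicative helicase, from 4.60 and 4.55 FPKM to 10 and 10.9 (1.04, SE 0.10, adjusted p 0.000169). No test of the difference between the lists was made, and the lists share all 4 libraries.

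**Figure D5:**
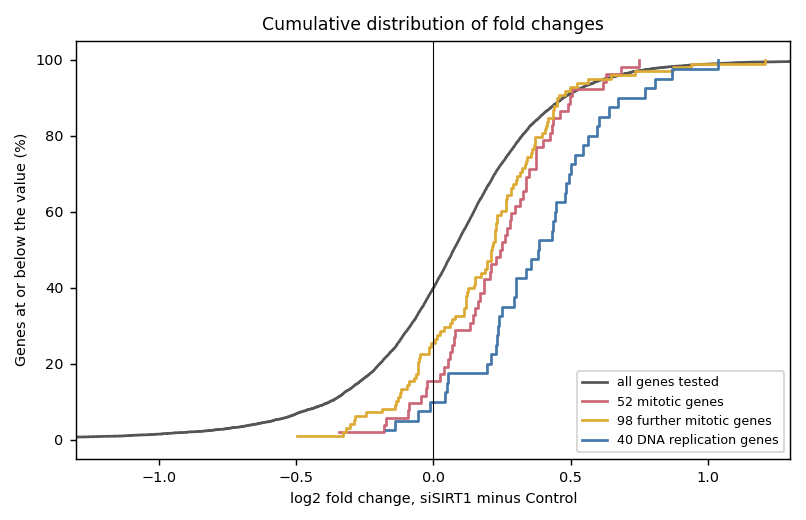
Cumulative share of genes (%) at or below each log2 fold change, siSIRT1 minus Control on the log2(FPKM + 1) scale, for all 12191 tested genes, the 52 mitotic genes, 98 further mitotic genes and 40 DNA replication genes. The few larger changes lie outside the x axis, and the medians of the 4 curves are 0.07, 0.25, 0.21 and 0.38.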

How the data were processed

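The authors deposited 1 table per library of FPKM values for 16878 genes, rounded to 2 decimals. The submitters' processing notes name HISAT, Bowtie2, RSEM and ChIPseeker without roles or versions. The genome build, the annotation, the handling of shared reads and the strand setting for RNA-seq are not given in the sources used here. FPKM is relative to each library's total, so abundant genes that change can shift all others.

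Because the values were FPKM, no count test was used. limma (3.58.1, R 4.3.3; eBayes with trend) was fitted to log2(FPKM + 1) for the 12191 genes averaging 1 FPKM or more, Control against siSIRT1 with 2 libraries each and no covariate. P-values are two-sided, Benjamini-Hochberg adjusted over all tested genes, with a threshold of 0.05. The fold change understates changes of low genes. The fit was also run on simulated data with independent noise. Those data lack the length and GC trends of these libraries, so they cannot show how many calls here are false.

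The members and gene lists were chosen with earlier results of these data known. Values in every library were given for the 4 largest called changes per role, fold changes for other called members, and for other lists the largest called rise and fall. E2F4, BUB3, CCNB1, SMC2, ASPM, CENPE and CENPF were also shown after their values were seen.

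Identifiers were matched to RefSeq names (16846 of 16878). Coordinates, lengths and GC content came from canonical transcripts of the GENCODE annotation lifted to GRCh37, and promoters from RefSeq (GRCh38.p14), with none found for AURKA, WEE1, FOXM1, BUB3, TTK, BIRC5, TPX2 and UBE2C. Depth was estimated from 1-read steps in the values of 96 to 120 single-exon genes per library (step score 0.46 to 0.591, against at most 0.392 with jittered values), and reads behind a gene are approximate. Alternatives were a pseudocount of 0.1, no filter, other scalings, GC or length correction, a replicate block, no trend, leaving out each library and the study's thresholds. Figures were drawn with matplotlib 3.10.9.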

Additional observations from a re-analysis of the deposited data

How the results depend on the processing

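In fits without 1 library, the number of mitotic genes called ran from 14 (without Control replicate 1) and 16 (without Control replicate 2) to 27 (without siSIRT1 replicate 1), higher calls from 14 to 27, lower calls from 0 to 4, and all genes called from 2691 to 4608. By role, higher calls ran from 3 to 9 for kinetochore genes, 2 to 7 for kinesins and 3 to 5 for condensin and exit genes. Without 1 library the lone library of its group is taken to vary like the other group, and fewer libraries enter the fit. Over the 10 alternatives that kept all libraries, 15 of the 22 rises passed in each one and 13 of those also in each of the 4 fits without 1 library, against 0 of the 2 falls. Scaling changed the member median from 0.25 to 0.1866 (quantile), 0.1644 (median of ratios) and 0.1889 (equal sums), while the median of all genes went from 0.0743 to 0.0190, -0.0023 and 0.0207. Kinetochore genes called higher numbered 3 instead of 6 with the median of ratios, and kinesins 3 instead of 5 with equal sums. Lower calls numbered 1 without the filter and 1 without the trend, where CDC25B had an adjusted p of 0.135. With a fold above 1.2 and an unadjusted p under 0.001, 13 genes were called, 13 higher and 0 lower (2 kinetochore, 2 kinesin and 3 condensin and exit genes), and 2207 of all genes. The cause of these shifts was not tested.

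The replicate numbers are shared only as numbers (same-number deviations had an r of 0.123). With the replicate number as a block 30 of the 52 genes were called, 27 higher and 3 lower, and 28 with a GC correction as well, while all genes called went from 4521 to 5393 and 4931. The following genes, none of them called, changed sign. With quantile normalization these were CENPF (-0.0326), SPC25 (-0.0547), KIF23 (-0.0042) and PTTG1 (-0.0077). With the median of ratios they were CENPF (-0.0439), SPC25 (-0.0618), KIF23 (-0.0174), HMMR (-0.0180), NCAPG (-0.0234) and PTTG1 (-0.0124), and with equal sums CENPF (-0.0186), SPC25 (-0.0363) and NCAPG (-0.0002). With the length correction they were SPC25 (-0.0807), NCAPD2 (0.01) and PTTG1 (-0.1229). Without Control replicate 1 they were SPC25 (-0.0012) and HMMR (-0.0123), without siSIRT1 replicate 1 ANLN (0.0206) and PTTG1 (-0.0061), and without siSIRT1 replicate 2 CENPF (-0.1235) and NUF2 (-0.0398). Over the 4 such fits the ranges were -0.0012 to 0.0489 for SPC25, -0.2086 to 0.0206 for ANLN, -0.0061 to 0.1566 for PTTG1, -0.1235 to 0.2048 for CENPF and -0.0398 to 0.1960 for NUF2.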
